A study of Mus musculus with 13 samples.

Results

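The Cd209 genes encode C-type lectins, cell-surface receptors that bind mannose- and fucose-rich sugars on microbes and on host glycoproteins. Described here are 5 of the 55353 gene symbols counted in mouse liver: Cd209a (CIRE, also called mouse DC-SIGN), Cd209b (SIGN-R1), Cd209d (SIGNR3), Cd209e (SIGNR4) and Cd209f (SIGNR8). They were chosen on their raw counts of unique molecular identifiers (UMIs, 1 per captured RNA molecule) by cell type and diet day in barcodes with at least 1500 UMIs, and on 1 measured value in particular, the lower Cd209d in type 2 conventional dendritic cells (cDC2) after diet withdrawal. That value is therefore given as a description. The files list 7 Cd209 genes in all, and Cd209c and Cd209g are mentioned where they bear on the 5.

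Liver cells of C57BL/6J mice were profiled by 10x 3' single-cell RNA-seq before and during feeding of chow with 0.1% DDC, a compound that injures bile ducts and brings inflammation and fibrosis around them. The atlas has 12 libraries, 1 by each of 2 cell isolation protocols at D0 (steady state, no DDC), D3 and D5 (grouped here as onset) and D9, D19 and D25 (grouped here as progression), and a STOP library (protocol B) comes from mice on DDC to D18 or D19, since the labels give both, that then recovered for 7 days on normal chow. The D19 library of protocol B likewise carries D18 in 1 label and D19 in its title, and is called D19 here. Protocol A mixed live singlets with sorted fractions of leukocytes (Cd45+), cells with Lyve-1 and with Pdpn, epithelium (Epcam+), Cd31+ cells without Lyve-1, and retinoid-autofluorescent cells, while protocol B mixed live cells of a stellate cell preparation with Cd45+ Itgax+ Cd64-, Epcam+ and Cd3e+ Lyve-1- cells. Protocol B was thus enriched for dendritic cells and its gate removed Cd64+ macrophages from the Itgax+ fraction, so shares of cell types follow the sort. The study's methods give male mice of 6 to 12 weeks, and no source used here ties a library to a number of mice.

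The libraries held 29307190 to 108602421 UMIs, and 95563 of 17968683 barcodes passed 1500 UMIs, with medians of 3350 to 12013 UMIs per cell. Among 78 pairs of libraries, at most 49 cell barcodes were shared (D9 A with D25 A, 0.460% of the smaller library). The largest share was 0.519% of the smaller library (D3 B with STOP, 8 barcodes). Cells were clustered with the Cd209 genes left out, and clusters were named from marker genes ("-like"). Before the results, 1 library has to be set apart. D0 B supplied 87.4% of the cells of 1 of the 5 cDC2-like clusters and 97.5% of those of 1 plasmacytoid dendritic cell (pDC)-like cluster. D0 A held 14 cDC2-like and 17 pDC-like cells, under the minimum of 20 per library. The steady state of dendritic cells therefore rests on D0 B alone, and in every test against it the library and the diet state cannot be told apart. In the cDC2-like cells of the 11 usable libraries, the summed level of the 8 cDC2 markers was 911 to 1606 CPM (the UMIs of a gene scaled to all UMIs of the same library and cell type), that of Kupffer cell markers 7 to 182 CPM and that of T cell markers 0 to 109 CPM.

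In tissue, DC-SIGN-type lectins are best known from dendritic cells and from macrophages that line sinuses and marginal zones, where they take up glycan-bearing antigen. Cd209a is in wide use as a marker of cDC2 and of monocyte-derived dendritic cells. Mouse has several of these genes where other mammals have few, and they lie side by side. In the GENCODE M21 annotation (GRCm38) all 7 lie on chromosome 8 between positions 3743397 and 4137707, a stretch of 394 kb that holds no other protein-coding gene and is flanked by Clec4g, itself a liver endothelial lectin, and Evi5l. Of these, 6 are on the minus strand and Cd209g is on the plus strand.

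The 250 bases before the annotated start of 4 members are shown because these 4 divide by cell group below: Cd209a mainly in cDC2-like cells, Cd209d and Cd209e most highly in a cluster left without a cell type name, and Cd209f in macrophages. They are from RefSeq (GRCm38.p6), minus strand, printed 5′ to 3′ and ending at the base before the RefSeq start, which for Cd209d, Cd209e and Cd209f lies inside the GENCODE gene. Capitals mark TTTCTCTTC and TTCCGG.
Cd209a, chr8:3748985-3749234: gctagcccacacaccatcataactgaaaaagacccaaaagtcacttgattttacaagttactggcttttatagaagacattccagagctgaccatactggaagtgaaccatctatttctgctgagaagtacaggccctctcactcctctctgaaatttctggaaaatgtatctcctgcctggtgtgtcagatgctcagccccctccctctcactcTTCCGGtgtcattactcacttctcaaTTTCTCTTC
Cd209d, chr8:3878500-3878749: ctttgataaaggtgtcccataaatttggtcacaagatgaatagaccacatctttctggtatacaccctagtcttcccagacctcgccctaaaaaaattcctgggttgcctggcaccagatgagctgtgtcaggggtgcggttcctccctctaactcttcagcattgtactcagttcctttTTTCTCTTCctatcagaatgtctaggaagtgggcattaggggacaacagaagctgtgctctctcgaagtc
Cd209e, chr8:3854287-3854536: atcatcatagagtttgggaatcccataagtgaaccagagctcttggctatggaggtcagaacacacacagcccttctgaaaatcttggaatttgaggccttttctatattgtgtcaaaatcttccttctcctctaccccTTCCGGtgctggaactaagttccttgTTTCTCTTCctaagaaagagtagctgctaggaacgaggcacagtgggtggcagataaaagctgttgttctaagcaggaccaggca
Cd209f, chr8:4105765-4106014: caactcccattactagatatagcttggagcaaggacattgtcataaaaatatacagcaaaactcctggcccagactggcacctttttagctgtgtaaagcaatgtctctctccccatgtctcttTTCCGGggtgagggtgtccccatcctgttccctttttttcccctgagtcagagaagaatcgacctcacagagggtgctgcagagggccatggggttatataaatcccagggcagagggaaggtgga

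TTTCTCTTC is the longest run that Cd209a, Cd209d and Cd209e share in these windows, picked after the sequences were read. It begins 9 bases before the start in Cd209a, 70 in Cd209d and 85 in Cd209e, and stands on either strand in 0.825% of the 32851 windows of this length. CCGGAA, a core of ETS-family sites (TTCCGG on the other strand), stands in 5 of the 7 Cd209 windows, all but Cd209c and Cd209d, against 12.0% of all windows. TATAAA, the letters of the TATA box, stands on either strand in those of Cd209a, Cd209f and Cd209g against 12.4%. In Cd209f and Cd209g it lies on the strand of the gene and begins 29 and 43 bases before the start. In Cd209a it lies on the other strand, 184 bases before the start. A match of letters is not a binding site. The windows of Cd209f and Cd209g share an unbroken run of 154 bases, and 36.3% of the 31-base words of the Cd209f transcripts recur in Cd209g, so reads from inside those transcripts could be split between the pair. Within the last 400 bases, where 3' libraries read, every 31-base word of all 7 genes was unique to its gene.

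The members differed in the cell groups that held them. The plot of the members by cell type gives 1 point per library, and the means below are over atlas libraries with at least 20 cells of the type. They describe where each gene is read, and levels are compared between cell types for a gene, not between genes.

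**Figure D1:**
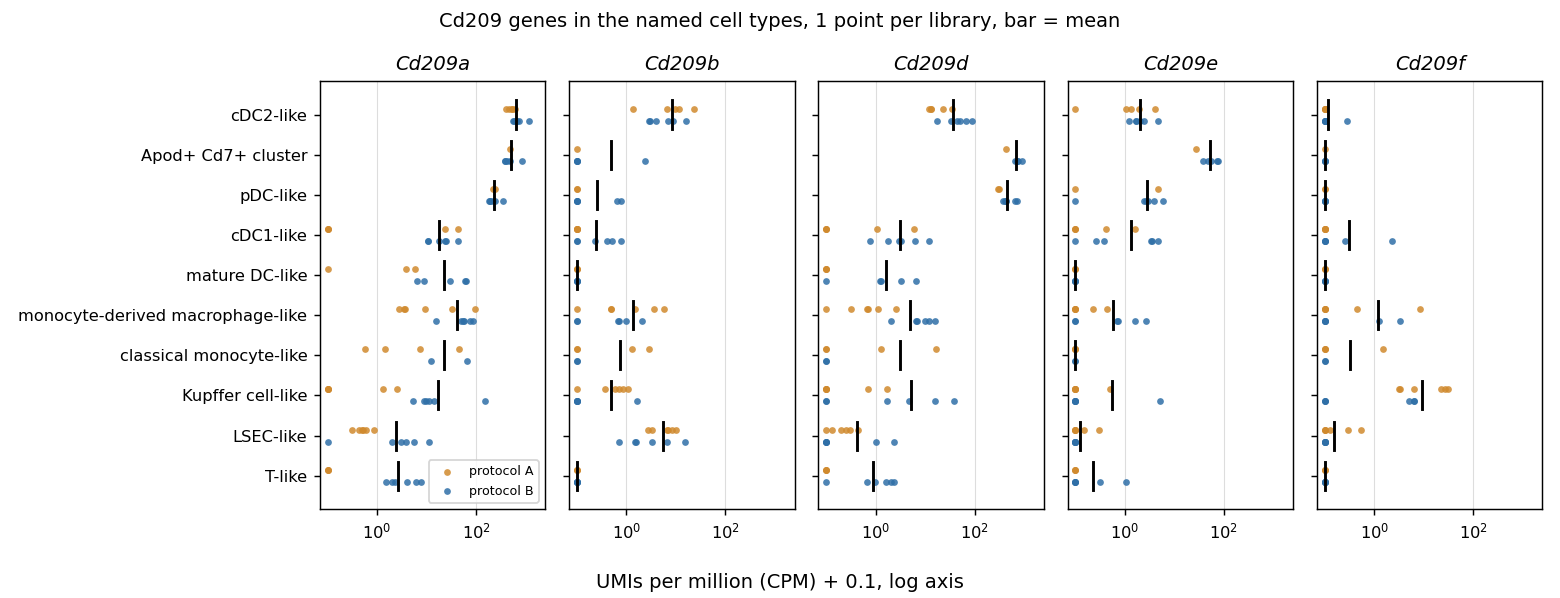
Level of each Cd209 member (CPM plus 0.1, log axis) in 10 cell groups (rows), with 1 point per atlas library of at least 20 cells, coloured by isolation protocol, and a black bar at the mean. Cd209a is high in cDC2-like cells, the Apod+ Cd7+ cluster and pDC-like cells, Cd209d in the Apod+ Cd7+ cluster and pDC-like cells, Cd209e in the Apod+ Cd7+ cluster, and Cd209f is highest in Kupffer cell-like cells.

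Cd209a was read mainly in cDC2-like cells, at 627 ± 210 CPM (SD, n = 11 libraries), and these cells held 54.8% of its UMIs in atlas cells while making up 5.24% of the cells. A cluster led by Apod, Alox5, Gria3 and Cd7 followed at 497 ± 168 CPM (n = 6), then pDC-like cells at 229 ± 53.0 CPM (n = 8), monocyte-derived macrophage-like cells at 40.1 ± 33.7 CPM (n = 12), mature DC-like cells at 22.3 ± 26.0 CPM (n = 8), classical monocyte-like cells at 21.8 ± 26.7 CPM (n = 6), cDC1-like cells at 17.95 ± 15.7 CPM (n = 11) and Kupffer cell-like cells at 16.8 ± 41.8 CPM (n = 12). The SDs of the cDC2-like cells and the cluster overlap, but cDC2-like cells were above the cluster in 6 of the 6 libraries that have both, by 48.0 to 369 CPM. Below pDC-like cells the means come from different libraries and set no order by themselves. In shared libraries, macrophage-like cells were above cDC1-like cells in 10 of 11 and above Kupffer cell-like cells in 11 of 12, whereas macrophage-like and monocyte-like cells (4 of 6, with means of 18.7 and 21.8 CPM there), mature DC-like and cDC1-like cells (4 of 8) and cDC1-like and Kupffer cell-like cells (6 of 11) had no order, and mature DC-like cells were below monocyte-like cells in all 3. Cell types with no known use for the gene were read beside these. Biliary epithelial cell (BEC)-like cells read 21.2 ± 13.7 CPM in protocol B (n = 5) and 0.667 ± 1.05 CPM in protocol A (n = 4), and T cell-like cells 3.86 ± 2.54 CPM in protocol B (n = 6) and 0 in all 3 protocol A libraries. In libraries with at least 20 cells of both types, macrophage-like cells were above BEC-like cells in 8 of 9, monocyte-like in 3 of 4, cDC1-like in 3 of 8, mature DC-like in 2 of 5 and Kupffer cell-like in 2 of 9. Monocyte-like and BEC-like cells had means of 5.25 and 4.97 CPM in the 4 libraries they share. The levels of monocyte-like, cDC1-like, mature DC-like and Kupffer cell-like cells thus cannot be told from those of BEC-like cells. Set beside T cell-like cells, monocyte-like cells were above in 4 of 4 libraries, mature DC-like in 5 of 6, cDC1-like in 7 of 9 and Kupffer cell-like in 7 of 9. D0 B and D5 A held 2 and 5 BEC-like cells and have no BEC-like value. The Kupffer cell-like mean rests on D3 B at 149 CPM, and over the other 11 libraries of both protocols these cells read 4.79 ± 5.28 CPM. With every cell thinned to 1500 UMIs, 45.7% of cDC2-like cells held a Cd209a UMI against 0.454% of T cell-like cells, as means of the library shares. Library medians were 4804 to 15862 and 2105 to 6734 UMIs per cell. Unthinned, the shares were 78% and 0.859%.

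The Apod+ Cd7+ cluster (1147 cells with STOP) was left without a cell type name. The cluster is labelled by genes that led it, and not every cell held them. It read Apod in 33.7% of its cells and Cd7 in 28.6%. Clustered among all cells it took the pDC name, but among myeloid cells its 10 leading genes held Ly6c2 (1083 CPM), which was used here as a classical monocyte marker, and no pDC marker. Cd7, Ly6c2, Tcf4, Runx2, Siglech and Csf1r, the genes by which the study marks precursors of dendritic cells (preDC), were all read in it, but no preDC list was among the markers used for naming. Tcf4, the factor on which pDC depend, was read at 1100 CPM and in 92.6% of its cells, Siglech at 373 CPM in 60.5%, Flt3 at 243 CPM in 77.7%, Runx2 at 260 CPM in 58.3%, Csf1r at 135 CPM in 50.04% and Clec10a at 147 CPM in 42.7%, whereas the pDC markers Klk1 and Ccr9 were near 0, at 6.32 and 4.32 CPM. Its summed pDC markers were 2362 to 4223 CPM per atlas library, against 12999 to 17244 CPM in pDC-like cells and 266 to 513 CPM in cDC2-like cells.

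Cd209d was highest in that cluster, at 693 ± 158 CPM (426 to 905, n = 6), and in pDC-like cells, at 451 ± 154 CPM (289 to 711, n = 8). These 2 groups held 36.9% and 34.5% of its UMIs. In cDC2-like cells it was at 35.9 ± 24.6 CPM (n = 11), and all other named types had means of 5.16 CPM or less. T cell-like cells read 0.790 ± 0.902 CPM (n = 9). Thinned to 1500 UMIs, 46.9% of the cells of the cluster, 38.8% of pDC-like, 4.18% of cDC2-like and 0.171% of T cell-like cells held a Cd209d UMI. These too are means of the library shares. The highest and lowest cDC2-like clusters differed in Cd209d: one led by Tnfsf9 and Areg had 115 CPM, 2 others 40.4 and 40.2 CPM, the Ccl17-led one 22.7 CPM, and the cluster led by the DNA replication genes Uhrf1 and Mcm7 10.7 CPM. Cd209a in the same clusters was at 800, 1144, 690, 539 and 376 CPM. These values pool all 13 libraries, STOP included, and D0 B, the library with the highest Cd209a, supplied 87.4% of the cells of the cluster at 1144 CPM, so they give no order among clusters. The clusters were drawn from 2000 variable genes with the Cd209 genes left out, and the values are a description.

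Cd209e followed the cluster more narrowly. It was at 52.5 ± 19.2 CPM there (27.2 to 75.8, n = 6), where 59.0% of its UMIs lay, and at 2.69 ± 2.00 CPM or less in every named type. In the cluster, here with STOP as a 7th library (1101 cells), 72.1% of the thinned cells with a Cd209e UMI also held a Cd209d UMI. These were 49 cells against the 32.7 that the 2 shares give if they were independent within each library, with more than that number in 7 of 7 libraries.

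Cd209b was low in every named type. Liver sinusoidal endothelial cell (LSEC)-like cells, 22.9% of the atlas cells, held 50.8% of its 1528 UMIs at 5.50 ± 4.28 CPM (n = 12). In cDC2-like cells, with 16.0% of the UMIs, its level was 8.41 ± 6.47 CPM (n = 11), not below that of LSEC-like cells, and T cell-like cells read none. Of the 788 Cd209f UMIs, 39.6% lay in Kupffer cell-like cells, the resident macrophages of the liver, at 9.16 ± 10.9 CPM (n = 12), and 34.0% in the 41 atlas cells of a cluster led by Ccl8 and Retnla, which had 726 CPM of Cd209f over its 44 cells with STOP. That small cluster carried macrophage genes, with C1qa in 100% of cells, Mrc1, the mannose receptor, at 3175 CPM and Cd163 at 825 CPM, and of the Kupffer genes it read Clec4f at 13.1 CPM, Cd5l at 23.6 CPM, Timd4 at 107 CPM (in 45.5% of cells) and Vsig4 at 131 CPM (in 31.8%). It read Ccl8 in 93.2% of its cells and Retnla in 29.5%. It also held Cd209b at 191 CPM, Cd209d at 155 CPM and Cd209g at 259 CPM. No library had 20 of its cells, so its levels per library are not compared.

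Across 21 cell groups (the named types and the unnamed clusters with leading genes), profiles were compared by Pearson r of log2(CPM + 1). Among 6762 genes of at least 50 CPM in a group, with the Cd209 genes left out of the ranking, those most like Cd209a were Ctnnd2 (0.88), Clec10a (0.86) and Slamf9 (0.85). For Cd209d they were Clec10a (0.86), Siglech (0.84) and Ctnnd2 (0.84), for Cd209e Ctnnd2 (0.77), Cd300c (0.76) and Fh1 (0.75), for Cd209b Retnla (0.81), Pla2g2d (0.77) and Ppp1r21 (0.74), and for Cd209f Ccl12 (0.89), Retnla (0.88) and Ccl8 (0.86). Within the family the highest values were those of Cd209f with Cd209g (0.98), Cd209d with Cd209e (0.86), Cd209a with Cd209d (0.85) and Cd209b with Cd209g (0.83). Clec10a and its neighbour Mgl2 are galactose-binding lectins of the same receptor class. The groups share libraries and depth, and the 2 small clusters weigh heavily in these values.

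The next comparison asks whether the members differ between steady state and DDC, and between onset and progression. UMIs were summed per library and cell type and tested with edgeR's quasi-likelihood test with isolation protocol as a term, the contrast being the mean of onset and progression against steady state, or progression against onset, with Benjamini-Hochberg adjustment over all genes tested. The fit rescales library totals (TMM) and holds the protocol term, and CPM does neither. Its log2 fold changes therefore need not equal ratios of the CPM printed beside them.

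Cd209a was lower in the DDC libraries than in D0 B in cDC2-like and pDC-like cells. In cDC2-like cells it was at 1195 CPM in D0 B. Onset libraries had 459 (D3 A), 732 (D3 B), 528 (D5 A) and 655 CPM (D5 B), and progression libraries 619 (D9 A), 576 (D9 B), 539 (D19 A), 639 (D19 B), 395 (D25 A) and 561 CPM (D25 B). All 10 DDC libraries lay below D0 B, and the 14 cells of D0 A, outside the test, read 1383 CPM (exact 95% Poisson interval 1159 to 1638, counting error only). The log2 fold change was -1.31 ± 0.26 (SE; edgeR adjusted p = 0.00615, lower in 10 of 10 libraries). With D0 A included, at a minimum of 10 cells, it was -1.17 (edgeR adjusted p = 0.0185). Of the D0 B cells, 90.8% lay in 1 cluster, led by Sirpb1a, Mgl2 and Slc6a13, that held 0% to 16.8% of the cells of the DDC libraries. Outside that cluster the 69 other D0 B cells read 870 CPM (787 to 960) and the DDC libraries 395 to 717 CPM. Thinned to 1500 UMIs, 61.4% of D0 B cells and 35.4% to 49.5% of DDC cells held a Cd209a UMI. The gap between onset (593 ± 123 CPM, n = 4) and progression (555 ± 86.7 CPM, n = 6) was within their spread, with a log2 fold change of -0.12 ± 0.17 (edgeR adjusted p = 0.904).

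**Figure D2:**
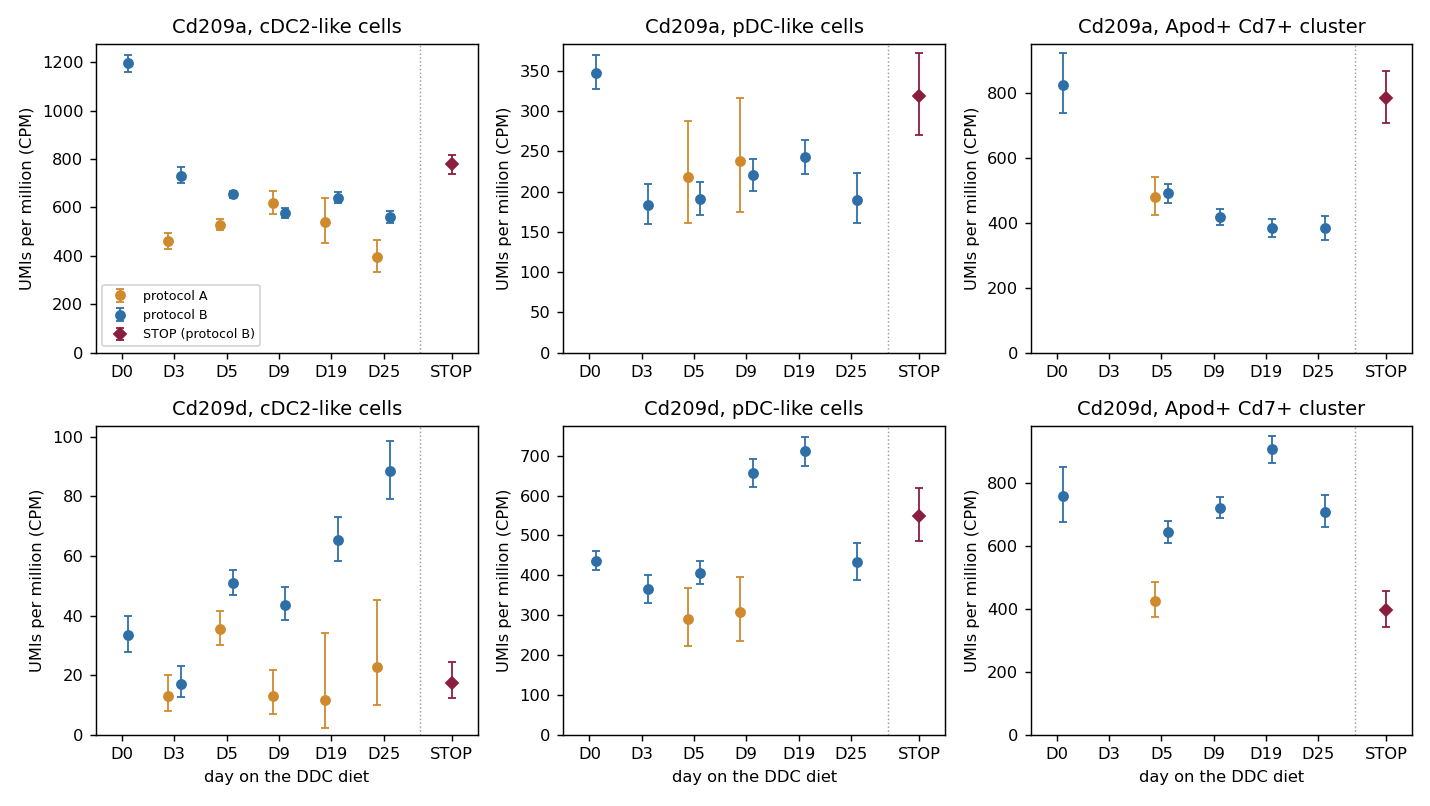
Level of Cd209a (upper row) and Cd209d (lower row) in CPM against day on DDC in cDC2-like cells, pDC-like cells and the Apod+ Cd7+ cluster, for libraries with at least 20 cells, with exact 95% Poisson intervals for counting error and STOP as a separate point. Cd209a of D0 B (1195, 348 and 826) lies above every DDC library in each column, and Cd209d of the cDC2-like cells is lower in STOP (17.5) than in D19 B (65.2).

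Cd209b in cDC2-like cells was also lower, on few UMIs. D0 B had 15.8 CPM (61 UMIs), and the DDC libraries 1.24 CPM in D3 A, 8.77 in D3 B, 9.57 in D5 A, 2.85 in D5 B, 6.52 in D9 A, 6.69 in D9 B, 11.6 in D19 A, 3.78 in D19 B, 22.9 in D25 A and 2.77 in D25 B. D25 A, from 8 UMIs, lies above D0 B, so the groups overlap. The log2 fold change was -2.16 ± 0.59 (edgeR adjusted p = 0.0291, lower in 9 of 10 libraries). The call was lost without D19 B (adjusted p = 0.0599), in protocol B alone (0.0503), with D0 A included (0.0942) and with a per-cell gate in place of clusters (0.276).

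Cd209d of cDC2-like cells did not pass. D0 B had 33.4 CPM. D3 A, D3 B, D5 A and D5 B had 13.03, 17.2, 35.5 and 50.9 CPM, D9 A and D9 B 13.1 and 43.6 CPM, D19 A and D19 B 11.6 and 65.2 CPM, and D25 A and D25 B 22.9 and 88.5 CPM. In protocol B the 2 highest values were those of D19 and D25, and at each day from D3 on the protocol B library was above that of protocol A. The log2 fold change was 0.23 ± 0.56 against steady state (edgeR adjusted p = 0.827) and 0.30 ± 0.37 for progression against onset (edgeR adjusted p = 0.880). Cd209e, at 0 to 4.62 CPM, had a log2 fold change of -0.56 ± 0.81 (edgeR adjusted p = 0.694), and Cd209f did not pass the filter on low counts. Thus 2 of the 4 members tested were called against steady state in cDC2-like cells, where 9.53% of the 11768 genes tested were called (1122, 426 higher and 696 lower), and 0 of 4 for progression against onset, where 0% were called by edgeR (1085 genes at an unadjusted p below 0.05, and 48 called by DESeq2).

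Gene lists around the members were counted in the same contrast of cDC2-like cells, to be read against the 9.53% called over all genes. By count, the cDC2A and MHC class II lists stood furthest above that share, and the other lists had 0 to 3 genes called. Of 23 other C-type lectin receptors tested, 3 fell and none rose: Clec4b1 (DCAR1; log2 fold change -2.01 ± 0.34), Cd302 (-1.03 ± 0.27) and Clec4a4 (DCIR2; -2.56 ± 0.70), while Mgl2 had -1.72 ± 0.54 with an adjusted p of 0.0514. Their median was -0.48 against -0.0013 for all genes. Of 11 signalling partners and ligands, 2 fell, Lsp1 (-1.75 ± 0.32), which binds DC-SIGN on its inner side, and Fcer1g (-0.84 ± 0.26), the ITAM adaptor of many lectins, with a median of -0.48. Of 5 cDC2A genes, 4 fell (Dtx1, Esam, Clec4a4 and the Notch target Hes1, -3.36 to -1.89; median -2.56), whereas of 6 cDC2B genes Cx3cr1 rose (1.73 ± 0.50; median -0.15). Of 10 MHC class II genes 5 fell, among them Cd74, the invariant chain (-1.81 ± 0.25), H2-DMb1 (-0.97 ± 0.27) and H2-DMb2 (-1.11 ± 0.33), with a median of -0.67. Of 12 maturation genes 2 fell, Fscn1 (-2.08 ± 0.53) and Cd83 (-1.31 ± 0.37), and of 10 interferon-stimulated genes 2, Isg15 (-2.60 ± 0.48) and Irf7 (-2.16 ± 0.48), with medians of -0.46 and -0.47. Of 11 monocyte genes Cx3cr1 rose (median 0.95), and 0 of 12 Kupffer identity genes was called (median 0.84). All these changes are against D0 B, and under the per-cell gate 67 genes in place of 1122 were called. Several were shared by pDC-like cells and the Apod+ Cd7+ cluster, also set against D0 B. There Lsp1 had -1.75 and -1.88, Fcer1g -0.92 and -0.74, Cd74 -2.25 and -1.62, Isg15 -1.97 and -2.10 and Irf7 -2.06 and -2.33. All passed in pDC-like cells and none in the cluster, and Hes1 passed in neither. These shifts are thus not particular to cDC2-like cells. Clec4b1, Mgl2, H2-DMb2 and Cd74 are also among the leading genes of the cDC2-like cluster that D0 B mostly fills.

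In pDC-like cells Cd209a was at 348 CPM in D0 B, 184 in D3 B, 218 in D5 A, 190 in D5 B, 238 in D9 A, 220 in D9 B, 243 in D19 B and 190 in D25 B. All 7 DDC libraries lay below D0 B, with a log2 fold change of -1.06 ± 0.23 (edgeR adjusted p = 0.00843). The 17 cells of D0 A read 270 CPM (169 to 408), an interval that holds the value of D0 B and all 7 DDC values. The libraries also differ in clusters: 97.2% of the D0 B cells lay outside the Siglech-led cluster that held at least 94.7% of the cells of each DDC library. Within that cluster the 20 cells of D0 B read 131 CPM (9 UMIs; 59.9 to 249), the DDC libraries 170 to 244 CPM and D0 A, all of whose 17 cells lie in it, 270 CPM, so the 2 steady-state libraries fall on either side of the DDC values. A cluster of 46 cells led by the B cell genes Ighm and Cd79a, 37 of them from D0 B, also took the pDC name. Without it D0 B read 307 CPM, and the log2 fold change was -0.92 (edgeR adjusted p = 0.0165). Cd209d in all pDC-like cells was at 436 CPM in D0 B, 365 in D3 B, 289 in D5 A, 406 in D5 B, 308.5 in D9 A, 656 in D9 B, 711 in D19 B and 433 in D25 B, with no direction against steady state (-0.13 ± 0.28, edgeR adjusted p = 0.788). The values of D9 B and D19 B stood above the rest, and the log2 fold change of progression against onset was 0.44 ± 0.21 (edgeR adjusted p = 0.659). In pDC-like cells 1 of the 2 members tested was called against steady state, with 15.7% of genes called, and 0 of 2 for progression against onset, with 0.0103% called. By DESeq2, 1 of 2 and 0 of 2 were called. pDC-like cells and the Apod+ Cd7+ cluster were added to the tests after their Cd209d level was seen.

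In the Apod+ Cd7+ cluster Cd209a was at 826 CPM in D0 B, 480 in D5 A, 491 in D5 B, 418 in D9 B, 383 in D19 B and 383 in D25 B. All 5 DDC libraries lay below D0 B, but the difference did not pass: -1.04 ± 0.26, edgeR adjusted p = 0.123. Cd209d was at 758 CPM in D0 B, 426 in D5 A, 642 in D5 B, 720 in D9 B, 905 in D19 B and 707 in D25 B (-0.24 ± 0.29, edgeR adjusted p = 0.659), with D0 B inside the DDC range. Cd209e was at 75.8, 27.2, 48.1, 72.6, 54.4 and 37.0 CPM in the same order (-0.69 ± 0.41, edgeR adjusted p = 0.366). Thus 0 of 3 members were called in each contrast, where edgeR called 0% of 9134 genes in each (1882 and 311 at an unadjusted p below 0.05). DESeq2 called 176 genes against steady state, Cd209a among them, and 0 for progression against onset.

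Cd209f in Kupffer cell-like cells was higher early than late in protocol A. D0 A had 27.3 CPM (55 UMIs), D3 A 30.6 CPM (153 UMIs), D5 A 21.8 CPM (29 UMIs), D9 A 3.25 CPM (8 UMIs), D19 A 6.40 CPM (46 UMIs) and D25 A 3.08 CPM (10 UMIs), and the 3 early libraries did not overlap the 3 late ones. This split joins D0 to onset and is not a contrast that was tested. The share of all genes that separate in this way is not given here. These cells sat in different clusters: over D0 A, D3 A and D5 A, 63.1% were in a cluster led by Cxcl13 and Gbp2b, which held 5.17% of those of D9 A, D19 A and D25 A, whereas 56.0% of the late cells were in one led by Marco and Colec12, with 7.16% of the early ones. D5 A differed from the other 2 early libraries, with 11.8% of its cells in the first cluster against 81.9% in D0 A and 71.1% in D3 A, near the 13.1% of D9 A, and 29.8% in the second against 0.860% and 1.54%. Summed over the 3 libraries a side, Cd209f was at 29.6 CPM early and 2.33 CPM late (1 UMI) in the first cluster and at 15.5 and 5.71 CPM in the second. It was at 31.3 and 4.59 CPM in the one led by Apoc1 and Abhd11os, and at 30.3 and 1.75 CPM in the small cluster led by the mitotic genes Anln and Plk1, so the early sum was higher in each of the 4 clusters. In the second cluster all 13 early UMIs were from D5 A, with 0 in the 3 cells of D0 A and the 5 of D3 A, and in the mitotic cluster 10 of the 11 were from D3 A. Protocol B, with 23 to 99 Kupffer cell-like cells a library, had 0 UMIs in D0 B, D3 B and D19 B, which allow up to 26.8, 9.49 and 2.21 CPM (3 UMIs of the cells' total; the exact intervals of the plot reach slightly higher, to 2.72 CPM in D19 B), and 6.299, 4.90 and 6.26 CPM in D5 B, D9 B and D25 B. Progression against onset had a log2 fold change of -2.32 ± 0.51, which did not pass (edgeR adjusted p = 0.0965), and DDC against steady state -0.84 ± 0.60 (adjusted p = 0.481). Without D19 B the first was called (-2.24, adjusted p = 0.0471), and over 16 alternatives its adjusted p was 1.87e-07 to 0.756. In these cells 0 of 3 members were called in each contrast, with 2.94% and 0.16% of 9380 genes called, and DESeq2 called 0 of 3 in each. Against steady state, other lectins did pass there: Clec7a, the beta-glucan receptor dectin-1 (1.33 ± 0.24), Clec4d (3.00 ± 0.62) and Clec4n, which encodes dectin-2 (1.28 ± 0.27), rose, and Clec4a1 (-1.27 ± 0.25) fell, among 18 tested with 3 rising and 2 falling (median -0.26 against 0.048 for all genes).

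**Figure D3:**
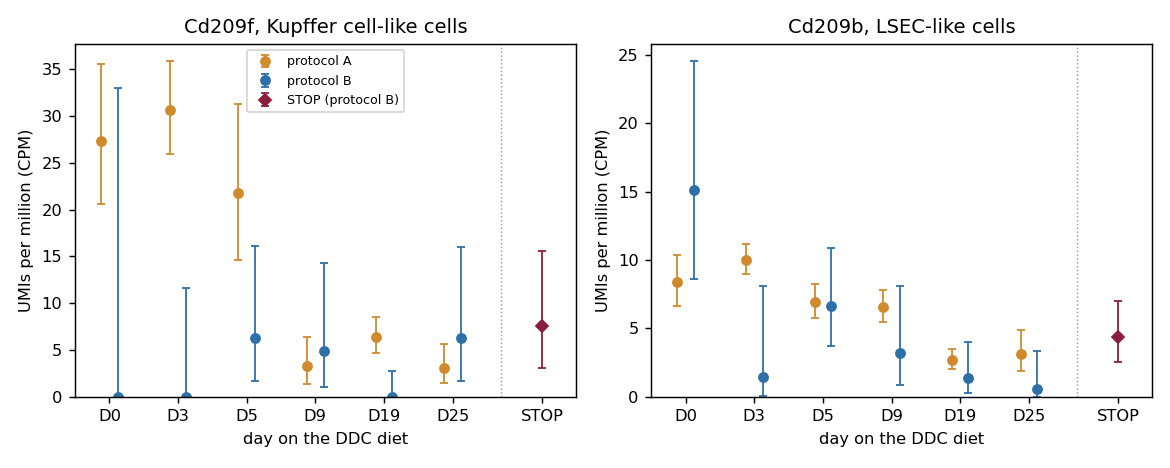
Level of Cd209f in Kupffer cell-like cells (left) and of Cd209b in LSEC-like cells (right) in CPM against day on DDC, coloured by isolation protocol, with exact 95% Poisson intervals for counting error. In protocol A, Cd209f is 21.8 to 30.6 at D0 to D5 and 3.08 to 6.40 at D9 to D25, and Cd209b is lower at D19 and D25 than at earlier days.

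Cd209b in LSEC-like cells was at 8.37 CPM (D0 A) and 15.1 CPM (D0 B) in steady state. At onset it was 9.999 CPM in the D3 A library, 1.45 CPM in that of D3 B, and 6.94 and 6.60 CPM in D5 A and D5 B. In progression it was 6.57 and 3.17 CPM in D9 A and D9 B, 2.68 and 1.37 in D19 A and D19 B, and 3.14 and 0.600 in D25 A and D25 B. The values of D0 and progression did not overlap, and those of onset spanned both. Here too the share of all genes that separate in this way is not given. The clusters differed here too, with 82.4% of the cells of D0 A in a cluster led by Serpina1e and Mup11 that held at most 1.69% in any other atlas library, and 59.4% of those of D19 A in one led by Rasd1 and Ctla2a. Neither contrast passed, with log2 fold changes of -1.27 ± 0.57 (edgeR adjusted p = 0.391) and -1.18 ± 0.47 (edgeR adjusted p = 0.528). Without the cluster led by Serpina1e and Mup11, genes of hepatocytes, they were -1.69 (edgeR adjusted p = 0.240) and -1.17 (0.471). In LSEC-like cells 0 of 2 members were called in each contrast, where 0.252% and 0.042% of 11916 genes were called. DESeq2 also called 0 of 2 in each.

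In classical monocyte-like cells only Cd209a passed the filter, in 6 libraries. It was at 64.6 CPM in the steady-state library (7 UMIs), at 45.5 CPM at onset (11 UMIs) and at 5.25 ± 5.36 CPM in progression (n = 4). Neither the steady-state library (D0 B) nor the onset one (D5 A) had 20 BEC-like cells to set beside it. D0 B held 1338 T cell-like cells, and its monocyte-like cells lay above them, whereas D5 A held only 15. Progression against onset had -3.63 ± 1.12 (edgeR adjusted p = 0.476), and 0 of 1 member was called in each contrast, where edgeR called 0% of 6569 genes in each (662 and 621 at an unadjusted p below 0.05). DESeq2 called 26 and 17 genes and no member.

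Cells with and without a member were then compared within libraries, to see what a Cd209a- or Cd209d-bearing cell also holds. Each cell was thinned to 1500 UMIs, cells with at least 1 UMI of the gene were summed apart from the others, and the pairs of sums were tested with the library as a block. The gene itself was left out. The clusters of a type were pooled, and whether a difference holds within a cluster was not tested.

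Cd209a-positive cDC2-like cells held more of 4 other lectins and less of 4 maturation genes than Cd209a-negative ones of the same 9 libraries, and most genes of both lists did not pass. Of 5441 genes tested, 139 were called (2.55%), 73 higher and 66 lower. Clec10a was at 436 ± 127 CPM in positive and 226 ± 90.7 CPM in negative cells (log2 fold change 0.90 ± 0.080, edgeR adjusted p = 1.11e-14, higher in 9 of 9 libraries). Clec4b1 (0.77 ± 0.11), Mrc1 (0.70 ± 0.21) and Mgl2 (0.54 ± 0.096) were also higher, so 4 of 13 other C-type lectin receptors rose and 0 fell, with a median of 0.31 against -0.0088 for all genes. Sgpp1, a phosphatase of sphingosine-1-phosphate (0.80 ± 0.20), and Mefv, which encodes pyrin (0.77 ± 0.23), were among the 3 largest increases.

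Cd209d was itself higher in Cd209a-positive cDC2-like cells, at 48.7 ± 22.6 CPM against 32.8 ± 25.5 CPM, with a log2 fold change of 0.71 ± 0.19 (edgeR adjusted p = 0.0181, higher in 7 of 9 libraries). This call was lost without D0 B (adjusted p = 0.115), D5 A (0.0797) or D5 B (0.366), and the log2 fold change was 0.52 to 0.95 over the 9 sets that leave out 1 library. DESeq2 did not call it either, with a log2 fold change of 0.72 and no adjusted p (DESeq2 unadjusted p = 0.0102).

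Of 9 maturation genes 4 were lower in Cd209a-positive cells and 0 higher (median -0.44): the chemokines Ccl22 (-0.75 ± 0.14) and Ccl17 (-0.68 ± 0.12), Ccr7, the receptor for migration to lymph nodes (-0.47 ± 0.13), and the costimulatory Cd86 (-0.42 ± 0.10). Ccl17 was at 143 ± 117 CPM against 271 ± 229 CPM. The largest decreases were Pglyrp1 (-1.61 ± 0.23), H2-Eb2 (-1.47 ± 0.25) and the chemokine Ccl5, at 141 ± 59.8 against 430 ± 172 CPM (-1.46 ± 0.11, lower in 9 of 9 libraries). Of 9 MHC class II genes of the list 2 were higher, H2-DMb1 (0.36 ± 0.059) and Cd74 (0.13 ± 0.031), with a median of 0.064. H2-Eb2, the class II gene named above as lower, is not in that list. Among signalling partners Fcer1g was higher (0.20 ± 0.048) and Malt1 lower (-0.30 ± 0.075), 2 of 6 tested. Of 8 monocyte genes Ccr2 was higher (0.40 ± 0.079) and Lyz2 lower (-0.25 ± 0.073), of 6 cDC2B genes Clec10a and Mgl2 were higher and Lyz2 lower, and 0 of 7 interferon-stimulated genes was called.

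**Figure D4:**
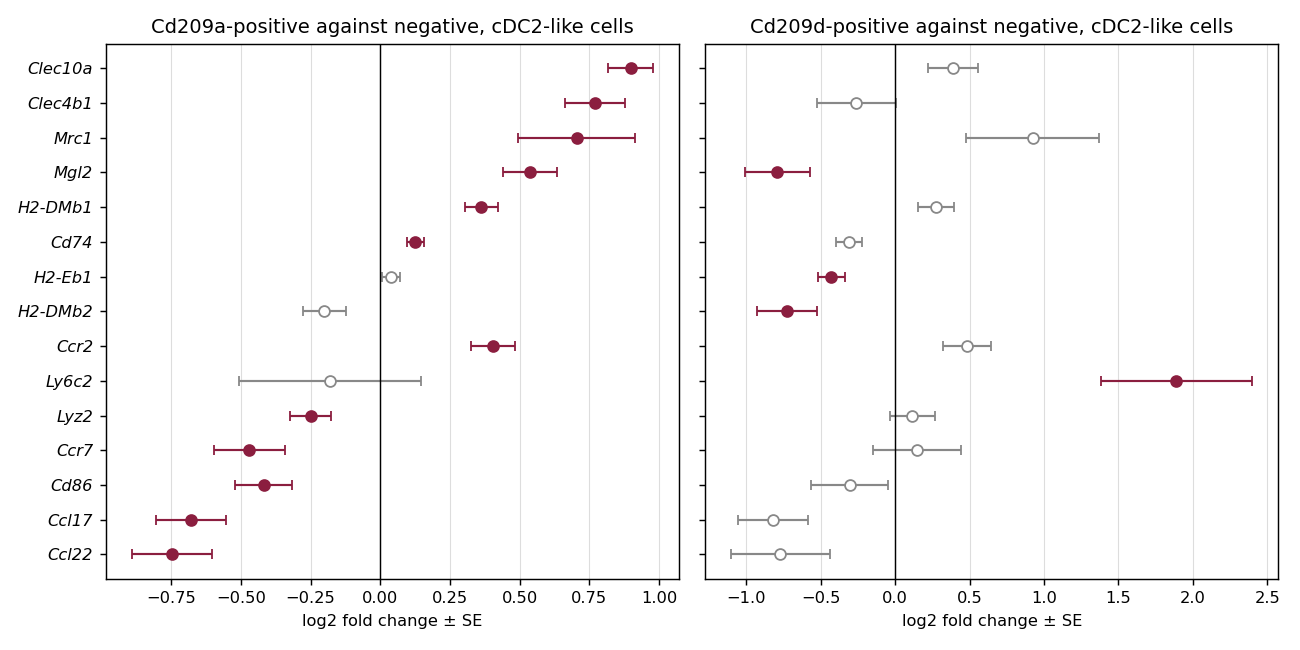
Log2 fold change ± SE of 15 genes of the lectin, MHC class II, monocyte and maturation lists in Cd209a-positive against Cd209a-negative (left, 9 libraries) and Cd209d-positive against Cd209d-negative (right, 5 libraries) cDC2-like cells, with filled points for an edgeR adjusted p below 0.05. On the left Clec10a, Clec4b1, Mrc1 and Mgl2 are higher and Ccl17, Ccl22, Cd86 and Ccr7 lower, and on the right Ly6c2 is higher and Mgl2, H2-Eb1 and H2-DMb2 lower. The lectins and maturation genes shown are only those called on the left, so they do not stand for their whole lists.

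Cd209d-positive cDC2-like cells were few, 26 to 66 in each of 5 libraries, all of protocol B. Of 4877 genes, 33 were called (0.677%), 4 higher and 29 lower, while the median of all genes was -0.11. The increases included Ly6c2, a monocyte surface antigen, at 73.2 ± 59.4 CPM against 14.5 ± 11.3 CPM (1.89 ± 0.51, edgeR adjusted p = 0.0343, higher in 4 of 5 libraries), and Vim (0.42 ± 0.11), Ifitm3 (0.37 ± 0.10) and Crip1 (0.37 ± 0.097), each higher in 5 of 5. The decreases included Arf3 (-2.76 ± 0.63), the chemokine Cxcl2 (-2.75 ± 0.43), the immediate-early factor Egr3 (-2.08 ± 0.54), Mgl2 (-0.79 ± 0.22), H2-DMb2 (-0.73 ± 0.20) and H2-Eb1 (-0.43 ± 0.091). By list, 1 of 7 monocyte genes rose, 2 of 9 MHC class II genes and 1 of 13 other lectins fell, and 0 of 9 maturation genes was called. Cd209a was at 981 ± 411 CPM against 732 ± 273 CPM, higher in 5 of 5 libraries, and did not pass (0.24 ± 0.14, edgeR adjusted p = 0.655). Ly6c2 also led the Apod+ Cd7+ cluster, and whether cells of that cluster lie among the Cd209d-positive cDC2-like cells was not tested.

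In pDC-like cells (6 libraries, a test added after the data were seen) 11 of 4024 genes were called between Cd209d-positive and -negative cells (0.273%). Cd209a was higher in the positive cells, at 311 ± 59.5 CPM against 169 ± 49.2 CPM (0.75 ± 0.12, edgeR adjusted p = 1.12e-05, higher in 6 of 6 libraries). The chemokine receptor Ccr2 (0.70 ± 0.15), Dnajb1 (0.56 ± 0.14) and Ly6c2 (0.28 ± 0.061) were also higher, and Lyz2 (-1.47 ± 0.19), Pgam2 (-1.29 ± 0.29) and Apoe (-0.93 ± 0.11) lower. Lyz2 and Apoe are abundant in macrophages, at 70.7 ± 47.9 against 257 ± 182 CPM and 366 ± 202 against 757 ± 483 CPM in these 2 sets of cells.

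The last comparison sets STOP beside D19 B, the library of its protocol nearest the time of withdrawal, with 1 library each and so no test. Intervals are exact and cover counting error only. In cDC2-like cells Cd209d was at 17.5 CPM in STOP (35 UMIs in 282 cells; 12.2 to 24.3) and at 65.2 CPM in D19 B (311 UMIs in 584 cells; 58.2 to 72.9), 3.73-fold lower (2.62 to 5.45). This is the value on which the family was chosen. The 6 protocol B atlas libraries ranged from 17.2 CPM (D3 B) to 88.5 CPM (D25 B), so STOP lay at the level of D3 B. Of 5366 genes of these cells, 212 (3.95%) were at least 2-fold lower in STOP with separate intervals, Cd209d among them. Thinned, 2.84% of STOP and 6.16% of D19 B cells held a Cd209d UMI. The cells of the 2 libraries also lay in different clusters. The cluster led by Tnfsf9 and Areg held 40.8% of the D19 B cells and 12.4% of those of STOP, and the Ccl17-led one 32.4% and 52.1%. In the first, Cd209d was at 118 CPM in D19 B (244 UMIs) and 19.2 CPM in STOP (5 UMIs), 6.16-fold lower (2.60 to 19.1). In the Ccl17-led cluster it was at 15.4 and 13.4 CPM (1.15-fold; 0.566 to 2.41) and in the other large cluster at 35.9 and 27.1 CPM (1.33-fold; 0.726 to 2.54), intervals that hold 1. Of the 311 UMIs of D19 B, 244 thus came from 1 cluster.

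**Figure D5:**
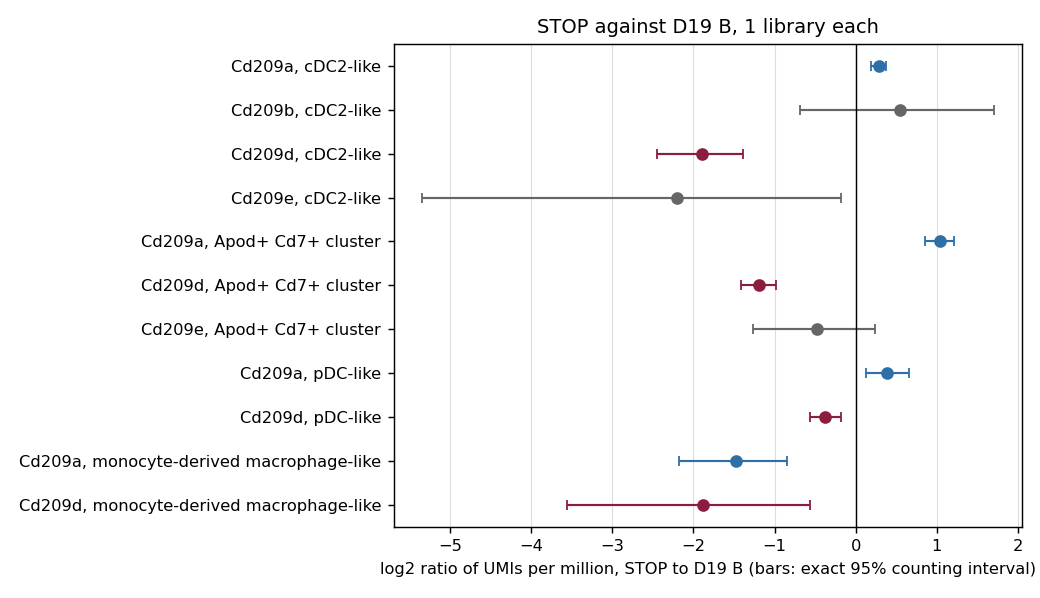
Log2 ratio of CPM in STOP to that in D19 B for Cd209 members in 4 cell groups, 1 library each, with exact 95% counting intervals. Cd209d lies below 0 in all 4 groups, and Cd209a lies above 0 in cDC2-like and pDC-like cells and the Apod+ Cd7+ cluster and below 0 in monocyte-derived macrophage-like cells.

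Cd209a of cDC2-like cells went the other way, 777 CPM in STOP (739 to 817) against 639 CPM in D19 B (617 to 662), a ratio of 1.22 (1.14 to 1.29), and STOP remained below D0 B (1195 CPM). Cd209b was at 5.50 against 3.78 CPM, a ratio of 1.46 (0.621 to 3.26), and Cd209e at 2 against 22 UMIs, 4.62-fold lower (1.13 to 40.5). In the Apod+ Cd7+ cluster Cd209d was at 395 CPM (341 to 455) against 905 CPM (863 to 949), 2.29-fold lower (1.97 to 2.67) and below all 5 protocol B atlas libraries with 20 cells (642 to 905 CPM). Cd209a there was at 785 against 383 CPM, a ratio of 2.05 (1.81 to 2.32), near D0 B (826 CPM), and Cd209e was at 39.1 against 54.4 CPM, 1.39-fold lower (0.848 to 2.40). In pDC-like cells Cd209d was at 549 against 711 CPM, 1.29-fold lower (1.13 to 1.48), and Cd209a at 318 against 243 CPM, a ratio of 1.31 (1.09 to 1.57). Cd209c of cDC2-like cells was also lower, 6 against 64 UMIs, 4.48-fold (1.95 to 12.7).

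Cd209f had 7 UMIs in the 86 Kupffer cell-like cells of STOP (7.55 CPM) and 0 in the 99 of D19 B. Cd209b of LSEC-like cells was at 4.35 CPM (17 UMIs) against 1.37 CPM (3 UMIs), a ratio of 3.17 (0.916 to 16.9).

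The share of the Apod+ Cd7+ cluster among cDC2-like cells, mature DC-like cells and the cluster together was also compared, first in protocol B. It was 9.13% in D0 B (exact 95% binomial interval 7.39 to 11.1). At onset it was 6.38% (3.62 to 10.3) for D3 B and 17.5% (15.8 to 19.4) for D5 B. In progression D9 B had 29.3% (26.2 to 32.6), D19 B 26.7% (23.8 to 29.9) and D25 B 23.3% (19.6 to 27.3), above the D0 and onset libraries of this protocol, and STOP had 16.3% (12.9 to 20.3). Protocol A had no such rise, with 6.67% (0.818 to 22.1) in D0 A, 4.78% (2.32 to 8.62) in D3 A, 10.98% (8.45 to 13.97) in D5 A, 8.25% (4.79 to 13.05) in D9 A, 3.13% (0.0791 to 16.2) in D19 A and 3.45% (0.420 to 11.9) in D25 A, the last 2 from 32 and 58 cells. The cluster held 84.9% of the Cd209d UMIs of these cells in D19 B and 84.6% in STOP. Over all cells, Cd209d was 8.16-fold lower in STOP than in D19 B (7.53 to 8.87), and Cd209a 1.86-fold lower (1.78 to 1.94). A level over all cells mixes cell numbers with the amount per cell and follows what was sorted. With 1 library a side, library, sort and diet state cannot be told apart.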

How the data were processed

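The deposited files hold raw UMI counts per gene and barcode, which the authors made from 10x 3' reads (kit version 3.1). The submitters' processing notes name kallisto and GRCm38, and the kallisto version is not given in the sources used here. Library totals were 29307190 to 108602421 UMIs, which limits the low members. Barcodes with at least 1500 UMIs (65.0% to 93.4% of a library's UMIs) were log-normalized, clustered (Leiden, igraph 0.11.9; all cells at resolution 1.5, 30260 myeloid cells at 2.0) and named where at least 3 fixed markers were detected and no other type had more of its fixed markers among the top 10 genes, whichever genes led them. These naming rules were revised after the clusters were seen. No doublet caller was run. Clusters in which another lineage had as many or more of these markers were left without a name. So were clusters in which most markers of a type of another lineage were detected, and for hepatocytes this rule asked for all markers. Under these rules 1 pDC-like cluster led by B cell genes and 1 LSEC-like cluster led by hepatocyte genes kept their names. Counting every reason, 29960 cells had no name, among them the Apod+ Cd7+ and Ccl8+ Retnla+ clusters.

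Counts were summed per library and type (at least 20 cells) and tested with edgeR 4.0.16 (R 4.3.3; quasi-likelihood, TMM, filterByExpr, adjusted p below 0.05). Isolation protocol was a term, and DESeq2 1.42.0 an alternative. SE is the log2 fold change over the square root of F. The 2 libraries of a day differ in protocol, no label gives separate animals, and p-values measure the spread between these libraries. The procedure was also run on simulated counts, whose setting and outcome are not given here, so no weight rests on that run. Cd209f-positive Kupffer cell-like cells could not be compared, since 0 libraries had 20 of them. Onset (D3, D5) and progression (D9 to D25) are groups formed here from the days in the labels. Members, lists and tests were chosen with earlier results of these data known. Named genes are the members, up to 4 genes a list by p, the 3 most alike outside the Cd209 genes and the 3 largest changes each way among called genes (mean log2 CPM 5 or more). The genes that describe the 2 unnamed clusters are chosen beside this rule. Gene positions are from GENCODE M21 and promoter sequences from RefSeq.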

Additional observations from a re-analysis of the deposited data

Results flagged for a closer look

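Chance marks about 1 in 20 groups as holding a library that stands apart, and 20 groups were looked at. In Kupffer cell-like cells at onset, Cd209a was at 149 CPM in D3 B, which had 23 of these cells, while the nearest of the other 3 libraries had 14.2 CPM. Cd209d in the same cells in progression was at 37.6 CPM in D9 B, with the nearest of the other 5 libraries at 1.63 CPM.

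The STOP to D19 B ratio of Cd209a differed in direction between cell types, at 1.22 in cDC2-like cells, 1.31 in pDC-like cells, 2.05 in the Apod+ Cd7+ cluster, 5.85 in Kupffer cell-like cells (28 against 7 UMIs) and 2.35 in T cell-like cells (24 against 9 UMIs) but 0.358 in monocyte-derived macrophage-like cells, 0.609 in cDC1-like cells (0.381 to 0.986; 50 against 31 UMIs) and 0.210 in LSEC-like cells (3 against 8 UMIs). Beside BEC-like cells, which read 9.64 CPM in STOP and 13.3 CPM in D19 B, the levels were 30.2 and 5.16 CPM in Kupffer cell-like, 6.43 and 10.6 CPM in cDC1-like, and 4.50 and 1.91 CPM in T cell-like cells, so of these values only that of Kupffer cell-like cells in STOP lay above BEC-like cells of its library. The difference in direction was not tested, since each side is 1 library.

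Cells left without a name outside the Apod+ Cd7+ and Ccl8+ Retnla+ clusters (25623 atlas cells) enter no comparison. They held 25.0% of the Cd209a UMIs of atlas cells, 19.7% of those of Cd209b, 14.2% of Cd209d, 16.3% of Cd209e and 15.1% of Cd209f. Of these, 79.5%, 77.7%, 71.7%, 90.2% and 88.2% lay in clusters that carried markers of more than 1 lineage.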

How the results depend on the processing

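Cd209a of cDC2-like cells was lower in DDC libraries in all 16 alternatives that gave the contrast (adjusted p 7.85e-05 to 0.0477), and that of pDC-like cells in all 13 (0.00121 to 0.0430). Without D0 B neither contrast could be fitted. The count of members called in cDC2-like cells against steady state fell from 2 to 1 with a per-cell gate, with at least 10 cells per library (an alternative chosen after seeing the data) and in protocol B alone, and was 1 to 2 with 1 library left out (1 without D19 B). Progression against onset gave 1 member in place of 0 in monocyte-like cells with no filter on low counts (0 to 1 with 1 library left out, 1 without D9 A) and 2 in place of 0 in Kupffer cell-like cells with no filter (0 to 1, 1 without D9 A or D19 B). The Apod+ Cd7+ cluster gave 1 in place of 0 against steady state by DESeq2 and with no filter (0 to 1, 1 without D25 B). Cd209d in cDC2-like cells changed sign without D25 B (-0.0058; -0.0058 to 0.63 over the libraries left out) and, for progression against onset, without D3 B (-0.18; -0.18 to 0.67). Cd209f in Kupffer cell-like cells against steady state changed sign without D0 A (5.82; -1.13 to 5.82). The cause was not tested.

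Genes called between Cd209a-positive and -negative cDC2-like cells were 55 by DESeq2 in place of 139, and 91 to 146 with 1 library left out (91 without D0 B). For Cd209d they were 6 by DESeq2 and 107 with no filter in place of 33, and 12 to 41 with 1 left out (12 without D25 B, 21 without D9 B), and in pDC-like cells 2 by DESeq2 in place of 11 (9 to 13).

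Counts over all genes moved more. Against steady state, cDC2-like cells had 67 calls with the gate, 139 with at least 10 cells and 487 in protocol B alone in place of 1122. DESeq2 gave 902 in place of 1522 in pDC-like, 533 in place of 276 in Kupffer cell-like and 278 in place of 30 in LSEC-like cells. For progression against onset, DESeq2 gave 50 in place of 15 in Kupffer cell-like, 80 in place of 5 in LSEC-like and 12 in place of 1 in pDC-like cells. With no filter the Kupffer cell-like counts were 688 and 276, the LSEC-like ones 596 and 341, the cluster had 736 and 55, monocyte-like cells 96 and 110, and cDC2-like cells 222 for progression against onset. At 3000 UMIs per cell Kupffer cell-like cells had 22 and 7, LSEC-like cells 9 for progression against onset and the cluster 4 against steady state. The gate gave 44 in Kupffer cell-like, 58 in LSEC-like and 450 in monocyte-like cells against steady state, and 8 in cDC2-like, 4 in monocyte-like and 0 in pDC-like cells for progression against onset. In protocol B alone Kupffer cell-like cells had 17 and 0, LSEC-like cells 0 and pDC-like cells 4 for progression against onset, and the cluster 4 against steady state. Without the cluster led by Serpina1e and Mup11 (an alternative chosen after seeing the data) LSEC-like cells had 12 and 3 in place of 30 and 5. pDC-like cells had 98 for progression against onset with no filter. Where edgeR called 0, DESeq2 called 176 in the cluster and 26 in monocyte-like cells against steady state, and 17 in monocyte-like and 48 in cDC2-like cells for progression against onset.

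With 1 library left out, the counts against steady state were 639 (without D19 B) to 1806 (without D25 B) in cDC2-like cells, 753 (without D19 B) to 2241 (without D25 B) in pDC-like cells, 4 (without D5 A) to 1282 (without D25 B) in the cluster, 6 (without D0 A) to 405 (without D3 A) in Kupffer cell-like, 11 (without D3 A) to 379 (without D0 B) in LSEC-like and 1 (without D25 A) to 174 (without D19 A) in monocyte-like cells. For progression against onset they were at most 110, 9, 21, 44, 36 and 200 in the same order. The STOP fold of Cd209d in cDC2-like cells was 3.65 at 3000 UMIs, 4.73 with the gate and 3.73 with TMM scaling. The level itself moved more with the gate, to 41.0 CPM in STOP and 194 CPM in D19 B, from 17.5 and 65.2 CPM. D19 B was then the highest protocol B library, so the level depends on where the border of these cells is drawn. The labels number no replicates. The isolation protocol, which the libraries of different days share, was a term of the fit, and positive and negative cells were compared with the library as a block. Depth limits Cd209b, Cd209e and Cd209f, most of whose library values rest on few UMIs.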
